A study of Mus musculus with 5 samples.

Results

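The genes examined here encode the machinery that copies DNA and supplies its building blocks. They were taken by name from a list, as 44 genes beside the 11608 genes of the deposited table. RNA Polymerase II ChIP-Seq was performed on Th2 cells grown in vitro, the helper T cells that make IL-4, IL-5 and IL-13. Naïve CD4+CD62L+ cells from spleens of C57BL6 mice were activated through CD3 and CD28 with 10 ng/ml IL-4 and an antibody to IFN-γ for 3 days, and were then expanded with IL-2 and IL-4 for 4 days. The groups were *Parp14*+/+ cells, *Parp14*+/+ cells + PJ34, *Parp14*-/- cells and *Parp14*-/- cells + PJ34, with 1 library each, so no comparison has a replicate check. *Parp14* encodes PARP-14, an ADP-ribosyltransferase that acts with STAT6, and PJ34 inhibits the enzymes of this family, at 10 µM in the labels and at another dose in the study's methods. All groups came from young mice, and neither the part of *Parp14* that was deleted nor the number of mice behind each library was given in the sources used here.

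Before a cell divides it must license its replication origins, open the double helix, and copy both strands at moving forks. Cdc6 and Cdt1 load the ring of Mcm2 to Mcm7 at origins, the GINS proteins and Mcm10 help turn that ring into a working helicase, and the polymerases are held on DNA by the PCNA clamp, which the RFC proteins load. Ribonucleotide reductase, thymidylate synthase and thymidine kinase provide the nucleotides. Many of these genes are targets of E2F factors and are transcribed as cells pass from G1 to S phase. T cells divide rapidly after activation, so these genes are commonly read as a sign of proliferation.

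The antibody used recognises polymerase phosphorylated at serine 2 of its tail, the form that is elongating and that gathers toward and past the end of transcribed genes. The value for a gene is its average peak height, which is the number of overlapping fragments at the highest point of an active region, averaged over the active regions assigned to that gene. It is a signal of single points and was not divided by gene length. SICER intervals are the stretches called as enriched over Input in a library. With 1 library per group there was no replicate, and no test between conditions was run. Each ratio therefore carries a 95% Clopper-Pearson interval made from the peak heights summed over the regions, which covers counting error only. A member was called where the ratio of heights was above 1.4 or below 0.7 and the higher library had an assigned interval.

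Libraries held 8841 to 12014 intervals, with a median height of 9 in each of the 4. *Parp14* itself had peak heights of 8 without and 11 with PJ34 in *Parp14*+/+ cells and of 6.67 in either *Parp14*-/- library, with an interval in every library. Polymerase was thus still found on the locus in the mutant, and these heights do not check the genotype labels. Of 10 Th2 and T cell markers, 10, 9, 7 and 8 had an interval on the gene body in the order of groups above, against 0, 1, 0 and 0 of 5 B cell markers and 1, 1, 0 and 1 of 5 myeloid markers. No interval lay on either of 2 CD8 T cell markers. The summed height of the 7 T cell markers with a row was 183, 196, 128 and 115 in the same order, and that of the 5 B cell markers, most of it from the *Cd79a* row that shares its values with a neighbour, was 62, 66, 59 and 54.

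Of the 44 members, 22 had a row that carried their name at the right place, 12 had a row at their coordinates under another label, and 10 had no row. The members without a row were *Mcm2*, *Pola2*, *Pole*, *Prim2*, *Gins1*, *Gins3*, *Gmnn*, *Top2a*, *Tyms* and *Uhrf1*, whose proteins include a subunit of the MCM ring, the catalytic polymerase of the leading strand, topoisomerase II and thymidylate synthase. The 12 rows found by coordinates were those of *Mcm4*, *Pola1*, *Pold2*, *Pold3*, *Rfc1*, *Rpa2*, *Rpa3*, *Fen1*, *Lig1*, *Rrm1*, *Chaf1b* and *Gins2*, and the transcript accession of the row was the member in 12 of 12. The names of 11 members sat on rows elsewhere in the genome. Rows named at the right place nearly all had an interval in a *Parp14*+/+ library, 21 of 22, against 1 of 12 rows found by coordinates. A set taken by name alone is therefore chosen in part for signal in *Parp14*+/+ cells, and counts are given below for both sets. An interval in at least 1 of the 4 libraries, which a row needed to enter the comparisons, was assigned to 21 of the 22 rows by name and to 25 of all 34 rows.

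Motifs in the promoters, which the list did not use, were counted in the members and in all genes. In the window from 250 bases before to 50 after the annotated gene start, on both strands of NCBIM37 (mm9), an E2F motif spelled TTTCCCGC, TTTCGCGC, TTTGCCGC or TTTGGCGC was present in 13 of 44 members (29.5%) and in 608 of 22367 protein-coding genes (2.72%). The CCAAT box, CCAAT, was present in 27 members (61.4%) against 37.9% of all promoters, and the GC box, GGGCGG, in 31 members (70.5%) against 43.4%. STAT6 motifs, TTC and GAA parted by 3 or 4 bases, were found in 5 members (11.4%) against 13.8%. The E2F matches lay in *Mcm3*, *Mcm4*, *Mcm5*, *Mcm6*, *Pola1*, *Pole*, *Pole2*, *Rfc3*, *Gins3*, *Cdc6*, *Cdt1*, *Gmnn* and *Dnmt1*. These stretches are shown for licensing factors and for 3 genes of the fork or of DNA methylation, read 5′ to 3′ on the gene's strand with the E2F letters in capitals. Each stretch is a match with up to 10 bases to either side inside the window, and that of *Rfc3* holds 2 matches.
*Mcm3*, chr1:20810357-20810384, minus strand: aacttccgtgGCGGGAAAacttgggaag
*Mcm3*, chr1:20810338-20810365, minus strand: cttgggaagtTTTGGCGCcaaggcggtg
*Mcm4*, chr16:15637700-15637727, minus strand: cggccccgggTTTCCCGCcaaaacgcaa
*Mcm6*, chr1:130256312-130256339, minus strand: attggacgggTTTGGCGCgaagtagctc
*Cdc6*, chr11:98769145-98769164, plus strand: gtagagcggcTTTGGCGCga
*Cdt1*, chr8:125091937-125091964, plus strand: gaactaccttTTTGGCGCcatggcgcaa
*Pole2*, chr12:70329150-70329177, minus strand: gtcggcggtgGCGCCAAAtcgcgaacat
*Rfc3*, chr5:152453768-152453793, minus strand: TTTCGCGCtcGCGGGAAAactctact
*Dnmt1*, chr9:20757269-20757296, minus strand: gtttccgcgcGCGCGAAAaagccggggt

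*Mcm5*, the MCM subunit whose height lay past the limit in the same direction in both genotype pairs, is shown with its whole window, where capitals mark 3 E2F matches, 2 of which overlap, and 3 CCAAT boxes. It held no GC box, and its 1 STAT6 match overlaps the last E2F match.
*Mcm5*, chr8:77633177-77633476, plus strand: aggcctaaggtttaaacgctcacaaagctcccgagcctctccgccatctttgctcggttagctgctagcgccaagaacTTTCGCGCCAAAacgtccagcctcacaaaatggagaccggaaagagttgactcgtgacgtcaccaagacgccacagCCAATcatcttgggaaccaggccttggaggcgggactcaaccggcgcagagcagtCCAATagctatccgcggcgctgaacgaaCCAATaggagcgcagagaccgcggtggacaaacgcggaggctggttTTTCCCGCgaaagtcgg

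The E2F letters are a description of the sequence and no measure of binding. SICER intervals lay on the promoter window of 8 (18.2%) and 9 members (20.5%) in *Parp14*+/+ cells without and with PJ34, and of 7 (15.9%) in either *Parp14*-/- library, against 14.2, 13.1, 12.4 and 12.3% of protein-coding genes. The *Mcm5* window was under no interval in any library. Promoters of *Pcna*, *Rfc5*, *Gins4* and *Tk1* were under an interval in all 4.

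Polymerase signal at the members was low. Over the 34 rows, the median peak height was 8.5 without and 8 with PJ34 in *Parp14*+/+ cells, and 7.5 without and 7 with PJ34 in *Parp14*-/- cells. Medians over all 11608 rows were 8, 8.33, 8 and 7.4, so the members with a row lay close to the typical gene of the table. The lowest value was 0, for *Pola1*, the catalytic subunit of the polymerase that starts each strand, in *Parp14*+/+ + PJ34. The highest was 31, for *Rfc4*, a clamp loader subunit, in *Parp14*-/- + PJ34. An interval was assigned in all 4 libraries to 9 rows.

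**Figure D1:**
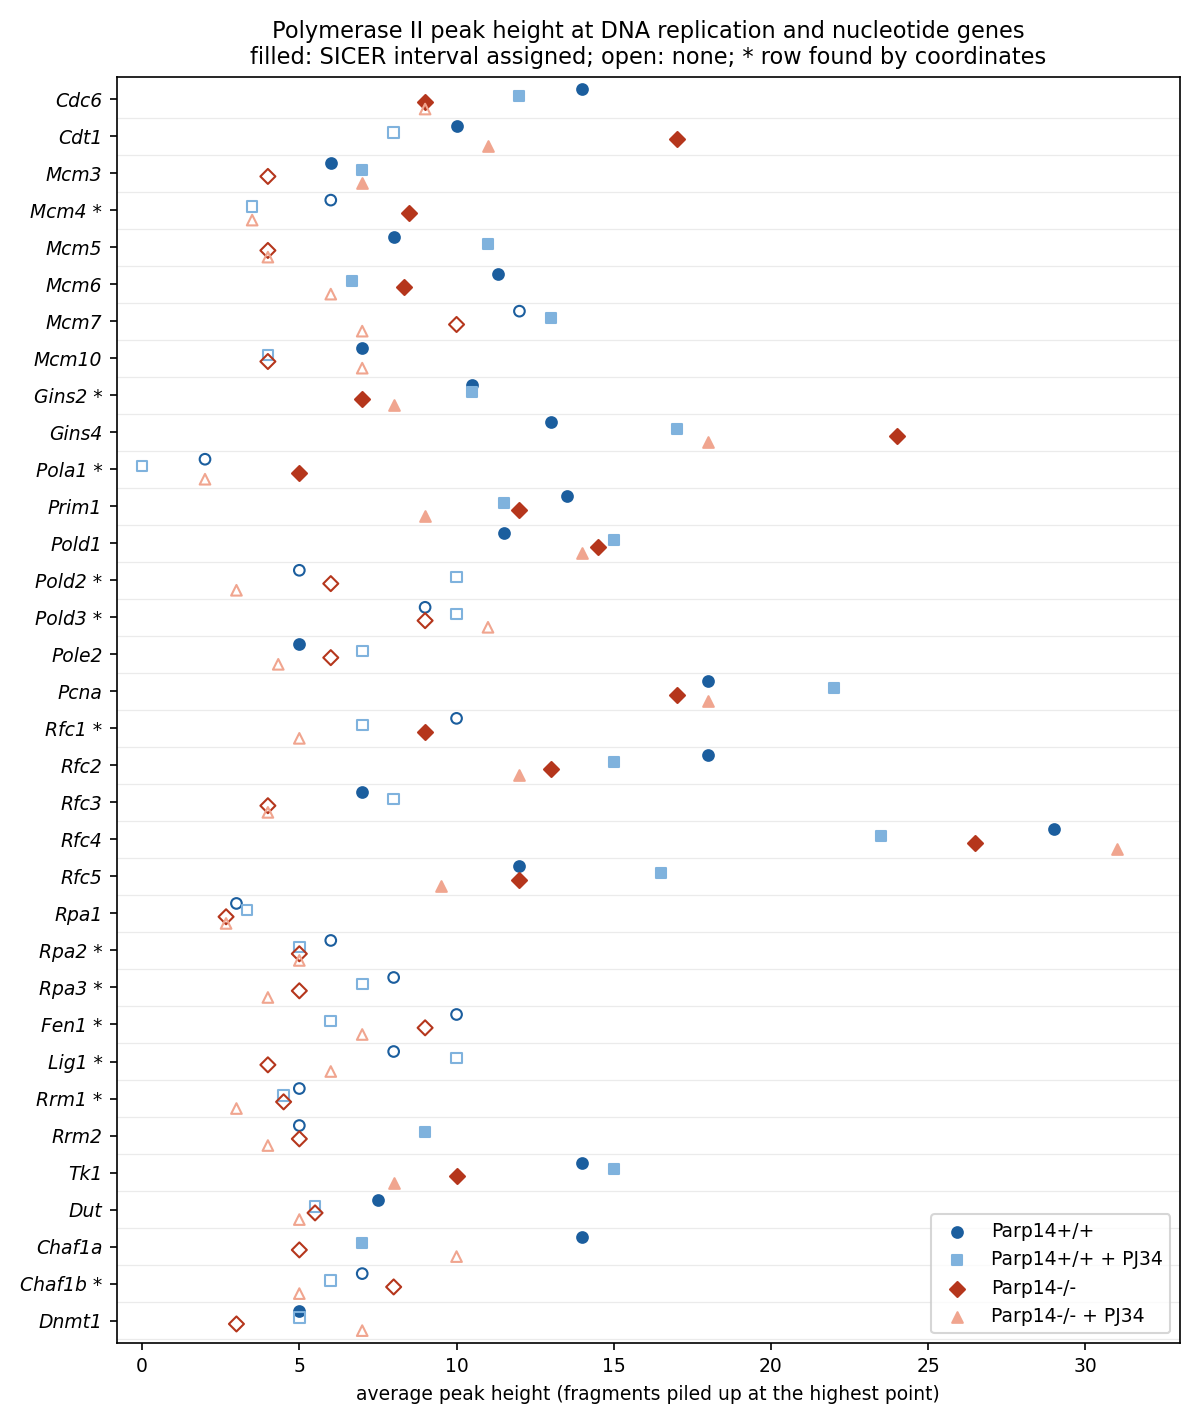
Average peak height (fragments at the highest point, x axis) of the 34 members with a row, ordered by role, in each of the 4 libraries. Filled symbols have an assigned SICER interval and open symbols none, and most members lie below 15 with the 4 libraries intermingled.

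The MCM ring subunits were read first, since they are the core of licensing. *Mcm3* had heights of 6 without and 7 with PJ34 in *Parp14*+/+ cells, and 4 without and 7 with PJ34 in *Parp14*-/- cells. The *Parp14*-/- library was the lowest, with a *Parp14*+/+ to *Parp14*-/- ratio of 1.5 (0.356-7.23). None of its intervals lay on the gene, and their highest points were 5335 to 5863 bases past its end. *Mcm4* had heights of 6, 3.5, 8.5 and 3.5 in the same order of libraries, and its one interval, in *Parp14*-/-, was 449 bases long inside the gene. Both PJ34 libraries were low, and in *Parp14*-/- cells the ratio of untreated to treated was 2.43 (0.957-6.93).

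*Mcm5* reached a height of 8 in untreated and 11 in treated *Parp14*+/+ cells, but 4 in *Parp14*-/- cells with or without PJ34. Both *Parp14*+/+ libraries were above both *Parp14*-/- libraries, and SICER intervals were called in the former alone. The genotype ratio was 2.00 (0.536-9.08) without PJ34 and 2.75 (0.815-11.8) with it, so either interval includes 1. The gene lies at chr8:77633427-77652338 on the plus strand, and its highest points were 2894 and 2158 bases past the end, in the untreated and the treated *Parp14*+/+ library. *Mcm5* was the one member of the 25 tested rows that was called in the same direction in both genotype pairs. It entered the tested rows only through the *Parp14*+/+ libraries, in which it was called higher.

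*Mcm6* had heights of 11.33, 6.67, 8.33 and 6 over 3 active regions, with an interval in all libraries but *Parp14*-/- + PJ34. In these 3 libraries an interval had its highest point near the start, 119 bases upstream in *Parp14*+/+, 87 bases upstream in *Parp14*-/- and 9 bases inside the gene in *Parp14*+/+ + PJ34. A further interval in *Parp14*+/+ had its highest point, 8, at 1512 bases past the end. The ratio of untreated to treated *Parp14*+/+ cells was 1.70 (0.951-3.12) and was called, and the untreated genotype ratio was 1.36 (0.788-2.38). *Mcm7* had heights of 12, 13, 10 and 7, values shared by 5 neighbouring rows, among them *Cops6* and the microRNA genes that lie inside *Mcm7*. The only interval near it, in *Parp14*+/+ + PJ34, had its highest point 857 bases past the gene's end, in *Cops6*. Its ratio with PJ34 was 1.86 (0.689-5.50), and how much of that signal belongs to *Mcm7* cannot be told apart from *Cops6*. *Mcm2* had no row and no interval on its body in any library.

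Among the other licensing genes, *Cdc6*, the ATPase that recruits the ring, was called higher in *Parp14*+/+ without PJ34, at 1.56 (0.627-4.07), and *Cdt1*, its partner, was called higher in *Parp14*-/-, at 0.588 (0.241-1.36). *Cdt1* shares its values with *Aprt*, an adenine salvage gene. Of the 7 tested licensing members, 3 were called higher in *Parp14*+/+ and 1 higher in *Parp14*-/-, where 11.0 and 8.99% of all 8551 tested rows were called.

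*Gins4*, a subunit of the complex that activates the helicase, had heights of 13, 17, 24 and 18, with an interval in every library. *Parp14*+/+ was the lowest library and *Parp14*-/- the highest, for a ratio of 0.542 (0.253-1.11) that was called, and with PJ34 the ratio was 0.944 (0.457-1.94). The interval reached from the start of *Gins4* into the region before *Golga7*, with highest points 125 bases upstream in 2 libraries and 2013 to 2088 bases upstream in 2. *Mcm10* and *Gins2*, the other members of this role with a row, were called higher in *Parp14*+/+ without PJ34, at 1.75 (0.445-8.15) and 1.5 (0.728-3.19). Both highest points of *Gins2* in *Parp14*+/+, 10 and 11, lay in *Gse1*, past the end of the *Gins2* row. That of 11 lay inside the longer annotated body of *Gins2*, which is used for the covered length below.

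Of the polymerase and primase genes, *Pold1*, the catalytic subunit of the lagging-strand polymerase, had heights of 11.5, 15, 14.5 and 14. The 4 libraries lay close together, and the genotype ratios were 0.793 (0.438-1.42) without PJ34 and 1.07 (0.619-1.86) with it. Highest points stood at its start in 3 libraries, 6 bases upstream, 70 bases upstream and 90 bases inside the gene, at heights of 26, 25 and 23. In *Parp14*+/+ the interval within reach lay instead over *Nr1h2*, 5094 bases upstream. *Prim1*, a primase subunit, had intervals off the gene only, and of the 4 tested genes of this role just *Pola1* was called in the untreated genotype pair, higher in *Parp14*-/-.

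*Pcna*, the sliding clamp, had heights of 18 without and 22 with PJ34 in *Parp14*+/+ cells, and 17 without and 18 with PJ34 in *Parp14*-/- cells, with an interval in every library. Of these values 3 lay within 1 fragment of each other and *Parp14*+/+ + PJ34 was above them. The genotype ratio was 1.06 (0.644-1.74) without and 1.22 (0.769-1.95) with PJ34. Its row averages 2 regions. The one on the gene had its highest point at the same base in all 4 libraries, 36 bases inside the start, at heights of 12, 17, 14 and 14. The other stood 1038 to 1678 bases past the end, by *5730494N06Rik*, at heights of 24, 27, 20 and 22. Intervals covered 85.5, 60.3, 81.9 and 85.5% of the *Pcna* body.

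The clamp loader held the tallest signal of the list, and much of it reached into neighbours. *Rfc4* had heights of 29, 23.5, 26.5 and 31, with no order by genotype, and ratios of 1.09 (0.741-1.62) and 0.758 (0.508-1.13). Its intervals of 10049 to 11399 bases ran from *Eif4a2*, a translation factor gene, into the end of *Rfc4*, with highest points of 51, 40 and 46 inside *Rfc4* in the first 3 libraries and of 53 in *Eif4a2* in *Parp14*-/- + PJ34. *Rfc2* had heights of 18, 15, 13 and 12, which it shares with *Lat2* and *Eif4h*, and ratios of 1.38 (0.641-3.07) and 1.25 (0.546-2.93). Intervals that touched *Rfc2* itself had highest points of only 6, 9 and 7, and none touched it in *Parp14*-/-. *Rfc5*, which shares its values with *Wsb2*, was covered over 84.6 to 98.3% of its body in all 4 libraries and was called in the treated genotype pair, higher in *Parp14*+/+, at 1.74 (0.959-3.23).

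**Figure D2:**
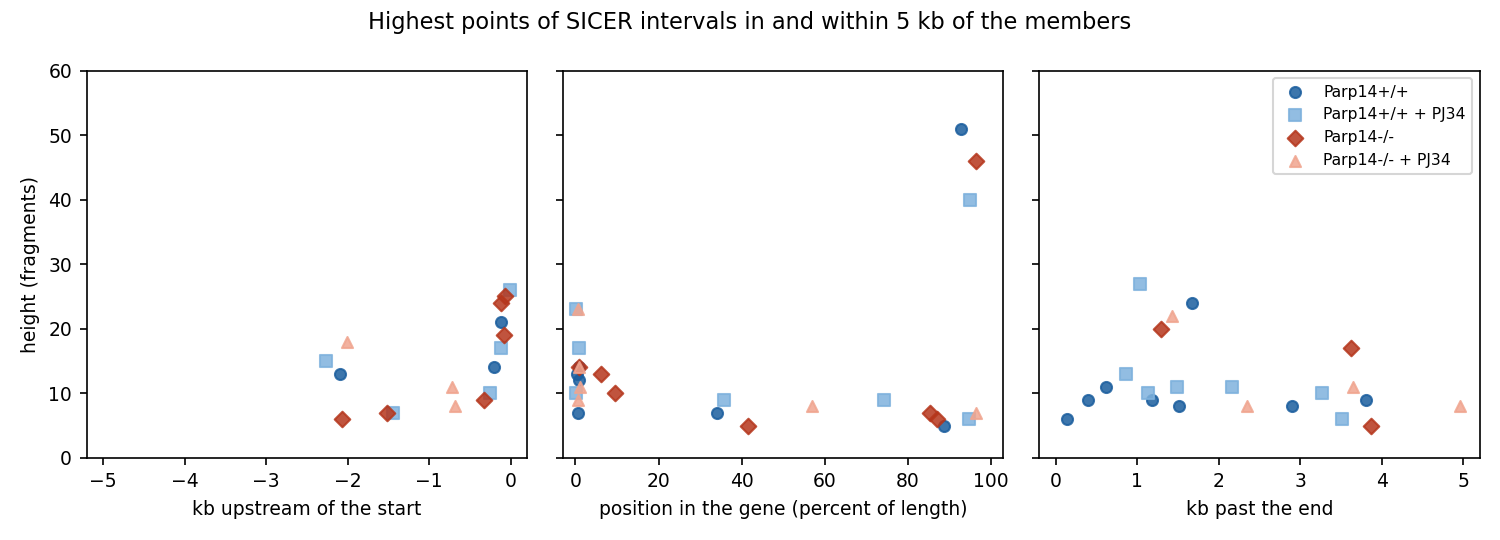
Highest points of SICER intervals by library, 17 upstream within 5 kb (left, kb from the start), 27 in the gene (middle, percent of gene length) and 22 past the end within 5 kb (right, kb), against their height in fragments. Of those in the gene, 14 lay in its first 10%, and the 3 above 30 belong to *Rfc4*.

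The single-strand binding genes *Rpa1*, *Rpa2* and *Rpa3* ranged from 2.67 to 8 and the Okazaki fragment genes *Fen1*, the flap nuclease, and *Lig1*, the ligase, from 4 to 10, with no interval in any library for these 5. The 4 nucleotide genes with a row ranged from 3 to 15. *Tk1*, thymidine kinase, was at 14, 15, 10 and 8 and was covered over 94.3 to 100% of its body, but shares its values with *Afmid* and *Syngr2*. *Rrm2*, the small subunit of ribonucleotide reductase, was at 5, 9, 5 and 4 and had its one interval, over 82.9% of its body, in *Parp14*+/+ + PJ34. *Chaf1a*, a histone chaperone of the fork, was at 14, 7, 5 and 10. *Parp14*+/+ was its highest library and *Parp14*-/- its lowest, at a ratio of 2.80 (0.953-9.93), and its values are those of the neighbour *Ubxd1*. *Rrm2* and *Chaf1a* were named after their values had been seen.

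The first comparison asked what the loss of PARP-14 does without the inhibitor. Of the 21 rows by name, 7 were called higher in *Parp14*+/+, namely *Cdc6*, *Mcm3*, *Mcm5*, *Mcm10*, *Rfc3*, *Chaf1a* and *Dnmt1*, the maintenance DNA methyltransferase, and 2 higher in *Parp14*-/-, *Cdt1* and *Gins4*. With the rows found by coordinates, 8 and 3 of 25 were called, *Gins2* and *Pola1* being added. Of all 8551 tested rows, 11.0% were called higher in *Parp14*+/+ and 8.99% higher in *Parp14*-/-, and of the 7971 with an interval in a *Parp14*+/+ library 11.8 and 7.59%. Of the 4567 rows with such an interval and a mean height no greater than the median of the members, 12.7 and 4.99% were called. The share of members called higher in *Parp14*+/+, 33.3% by name and 32% by coordinates, was above the background. Of those called, however, *Mcm10*, *Rfc3* and *Dnmt1* had an assigned interval in *Parp14*+/+ alone, and *Pola1*, called the other way, in *Parp14*-/- alone. They entered the tested rows only through the library in which they were called higher. *Mcm5* and *Chaf1a* had an assigned interval in both *Parp14*+/+ libraries and in neither *Parp14*-/- library. These entered only through the genotype in which they were called higher. No background here was matched for this, so the share cannot be read as a result about the members. The members' median ratio was 1.36 (order-statistic interval 1.00-1.56) by name and 1.2 (1.00-1.5) with coordinates, against 1.00 over all tested rows. Such an interval is taken over genes of the same 2 libraries, some with shared values, and covers no variation between libraries. Of the 7 rows by name that reached a summed height of 20 in either library, 0 were called higher in *Parp14*+/+ and 1, *Gins4*, higher in *Parp14*-/-, and with the rows found by coordinates *Gins2* made it 1 and 1 of 8. At that height 11.1 and 9.69% of all rows were called. In none of the 34 rows did the counting interval exclude 1, where it did so in 3.10% of all tested rows.

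The same comparison in the presence of PJ34 used libraries that the first did not. Here 5 of the 21 rows by name were called higher in *Parp14*+/+ + PJ34, *Mcm5*, *Mcm7*, *Rfc5*, *Rrm2* and *Tk1*, and 0 higher in *Parp14*-/- + PJ34, with the same counts among the 25 rows. The background was 19.8% and 4.58%, so the members' 23.8% (20% of the 25) lay near it. *Mcm7* and *Rrm2* had an assigned interval in *Parp14*+/+ + PJ34 alone. They entered the tested rows only through the library in which they were called higher, and *Mcm5* only through *Parp14*+/+ libraries. The median ratio was 1.22 (0.944-1.74) against 1.14 over all tested rows. When each library was scaled to a median ratio of 1, the calls over all rows became 11.1 and 9.57%, those of the members 5 and 2 of 21, and the members' median 1.07. No counting interval of a member excluded 1, against 3.48% of all tested rows. Of the 7 members called in *Parp14*+/+ without PJ34, *Mcm5* alone was called again. *Rfc3*, a clamp loader gene at 7 and 8 in *Parp14*+/+ cells and 4 in either *Parp14*-/- library, kept its direction at 1.75 and 2.00 (0.536-9.08), but had no interval in *Parp14*+/+ + PJ34. The summed T cell marker heights were also lower in both *Parp14*-/- libraries. Without PJ34 this lay in *Il13* (38 and 17 in *Parp14*+/+ and *Parp14*-/-), *Il5* (21 and 4), *Gata3* (60 and 45) and *Cd4* (5.5 and 4). The CD3 genes were close there, *Cd3d* at 15 and 14, *Cd3e* at 8 and 9 and *Cd3g* at 11 and 11. With PJ34 they too were lower in *Parp14*-/-, *Cd3d* at 22 and 11, *Cd3e* at 9.5 and 6.5 and *Cd3g* at 15 and 9. *Il13* (33 and 10), *Il5* (21 and 6) and *Gata3* (58 and 43) were again lower, whereas *Cd4* was at 6.5 and 7. The part of any of these in the members' counts was not tested.

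**Figure D3:**
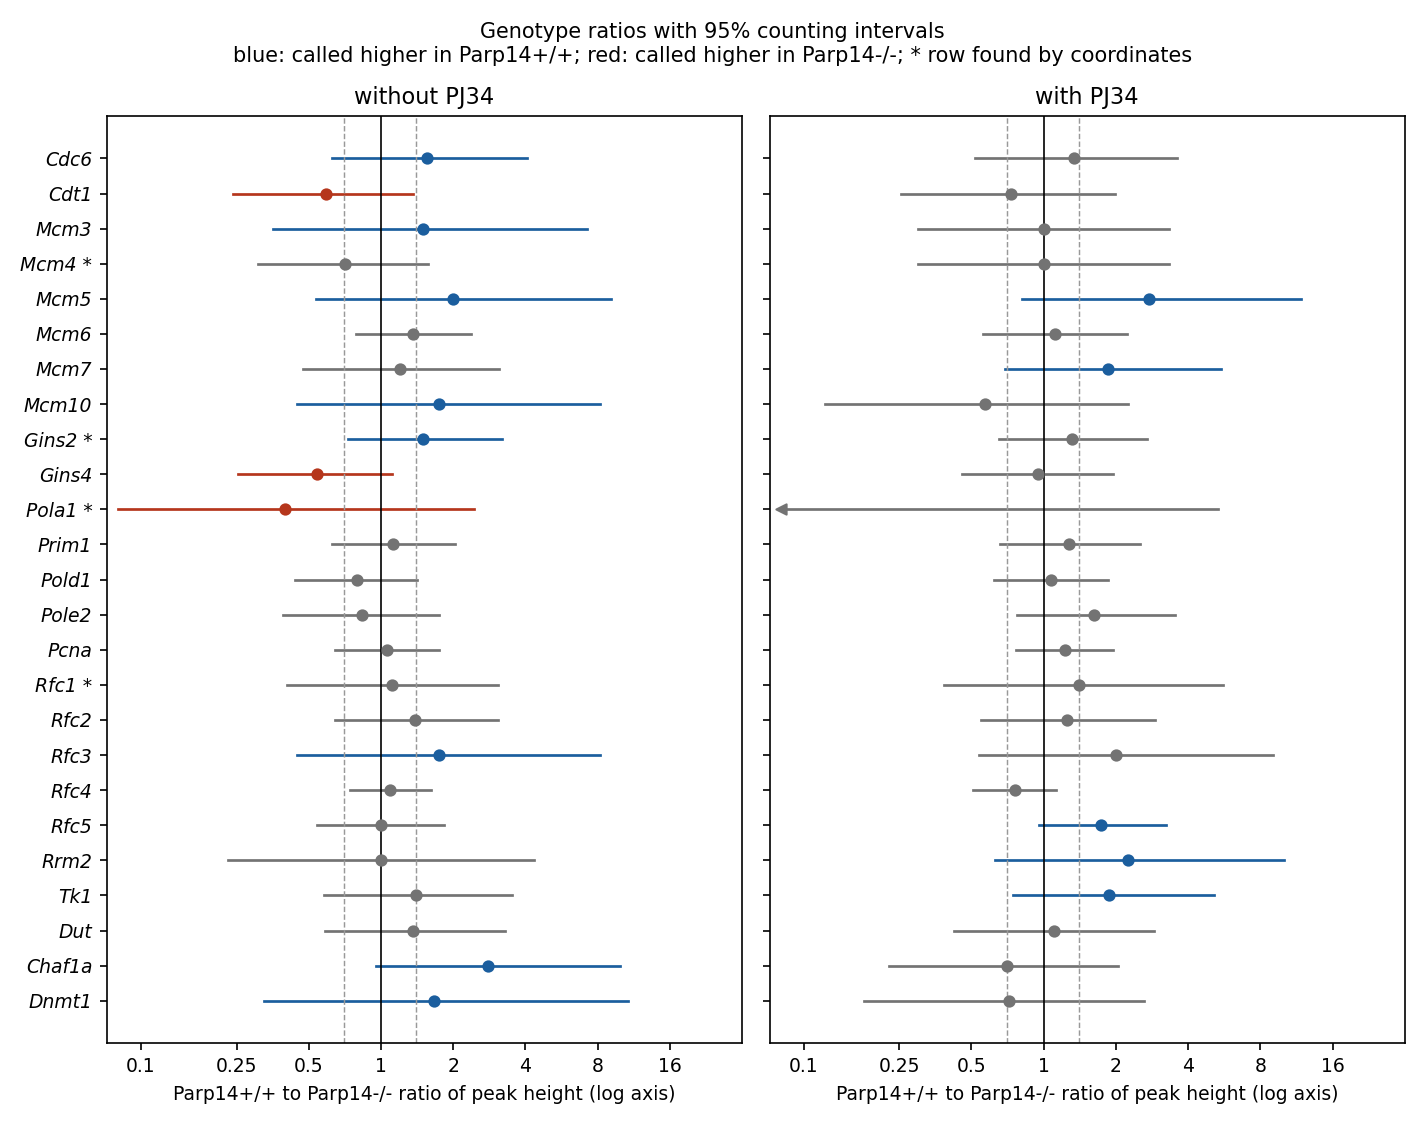
*Parp14*+/+ to *Parp14*-/- ratio of peak height (log axis) for the 25 tested members, without PJ34 (left) and with it (right), with 95% counting intervals. Dashed lines mark 1.4 and 0.7, the arrow marks a height of 0 in the first library, intervals are cut at the axis, and every interval crosses 1.

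The effect of PJ34 was compared within each genotype, in pairs that share libraries with the genotype pairs. In *Parp14*+/+ cells, 3 of 21 members were called higher without PJ34, *Mcm6*, *Mcm10* and *Chaf1a*, and 1 higher with PJ34, *Rrm2*, against 6.23 and 9.23% of all tested rows. *Mcm10* had an assigned interval in *Parp14*+/+ alone and *Rrm2* in *Parp14*+/+ + PJ34 alone, in each case the library in which it was called higher. The *Chaf1a* interval in *Parp14*+/+ had its highest point, 14, at 6759 bases past the gene's end. The median ratio was 0.933 (0.767-1.23) against 0.958 over all rows, and the counts by coordinates were likewise 3 and 1. Scaling the libraries changed the background to 8.43 and 7.94% and the members to 4 and 1. In *Parp14*-/- cells, 1 of 21 was called higher without PJ34, *Cdt1*, and 1 higher with it, *Mcm3*, against 11.4 and 4.01%, or 6.64 and 6.82% after scaling. Adding the rows found by coordinates brought the former to 4 of 25, with *Mcm4*, *Pola1* and *Rfc1*, rows whose labels are misplaced. Each of these had an assigned interval in *Parp14*-/- alone. They thus entered the tested rows only through the library in which they were called higher, which favours the call. The median ratio there, 1.08 (0.944-1.33), equalled that of all tested rows.

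Intervals on the annotated gene bodies gave a view of all 44 members that does not depend on the rows of the table. In *Parp14*+/+ cells 17 members (38.6%) had an interval on the body without PJ34 and 12 (27.3%) with it, and in *Parp14*-/- cells 11 (25.0%) and 9 (20.5%). Among 22367 protein-coding genes the shares were 27.3, 26.4, 23.1 and 22.1%. In 22 members an interval was called in at least 1 library (33.1% of protein-coding genes) and in 6 in all 4 (17.4% of protein-coding genes), these being *Gins2*, *Gins4*, *Pcna*, *Rfc4*, *Rfc5* and *Tk1*. The other 22 members had none, so for them transcription was not detectable by this measure at this depth.

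Intervals without PJ34 were found in *Parp14*+/+ alone on 10 of the 21 members with one in either genotype, *Cdc6*, *Cdt1*, *Mcm5*, *Mcm10*, *Pole2*, *Rfc2*, *Rfc3*, *Dut*, *Chaf1a* and *Dnmt1*, and in *Parp14*-/- alone on 4, *Mcm4*, *Pola1*, *Pold1* and *Rfc1*. Of 6654 protein-coding genes with one in either, 22.4% had it in *Parp14*+/+ alone and 8.16% in *Parp14*-/- alone, so both shares of the members, 47.6 and 19.0%, were above the background. Of the former 10, only *Mcm10*, *Rfc3* and *Dnmt1* had the highest point in the gene. For *Pole2* and *Chaf1a* it lay over another gene past the end. *Cdc6* and *Rfc2* also had a *Parp14*-/- interval, off the body but within 5 kb. For the latter 4 the highest point lay in the gene or at most 324 bases upstream. The background was not matched for signal height, so neither share can be read as a result about the members. With PJ34, 4 of 13 members had an interval in *Parp14*+/+ + PJ34 alone, *Cdc6*, *Mcm6*, *Rrm2* and *Chaf1a*, and 1, *Cdt1*, in *Parp14*-/- + PJ34 alone, against 23.6 and 8.68%. The *Cdt1* intervals differed by place: in *Parp14*+/+ one covered 328 bases of its end, and in *Parp14*-/- one with a height of 17 lay past the end, so that with 2 kb added to the gene both were counted, over 2328 and 1578 bases. In *Parp14*+/+ cells, 7 of 19 members had an interval without PJ34 alone and 2 with PJ34 alone, against 14.0 and 11.1%. In *Parp14*-/- cells the counts were 4 and 2 of 13, against 15.4 and 11.8%.

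Intervals covered 61.5 kb of the 1383 kb of member gene bodies in *Parp14*+/+ cells without PJ34 and 47.8 kb with it, and 37.7 and 37.5 kb in *Parp14*-/- cells. As a share of length that was 4.45, 3.45, 2.72 and 2.71%, against 7.86, 6.39, 5.72 and 5.06% of all protein-coding gene length. These shares include the members with no interval. Among covered members the median share of the body was 10.2, 25.0, 9.03 and 29.3%, which was below that of covered protein-coding genes (25.9 to 38.0%) in the first 3 libraries and above it in *Parp14*-/- + PJ34.

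**Figure D4:**
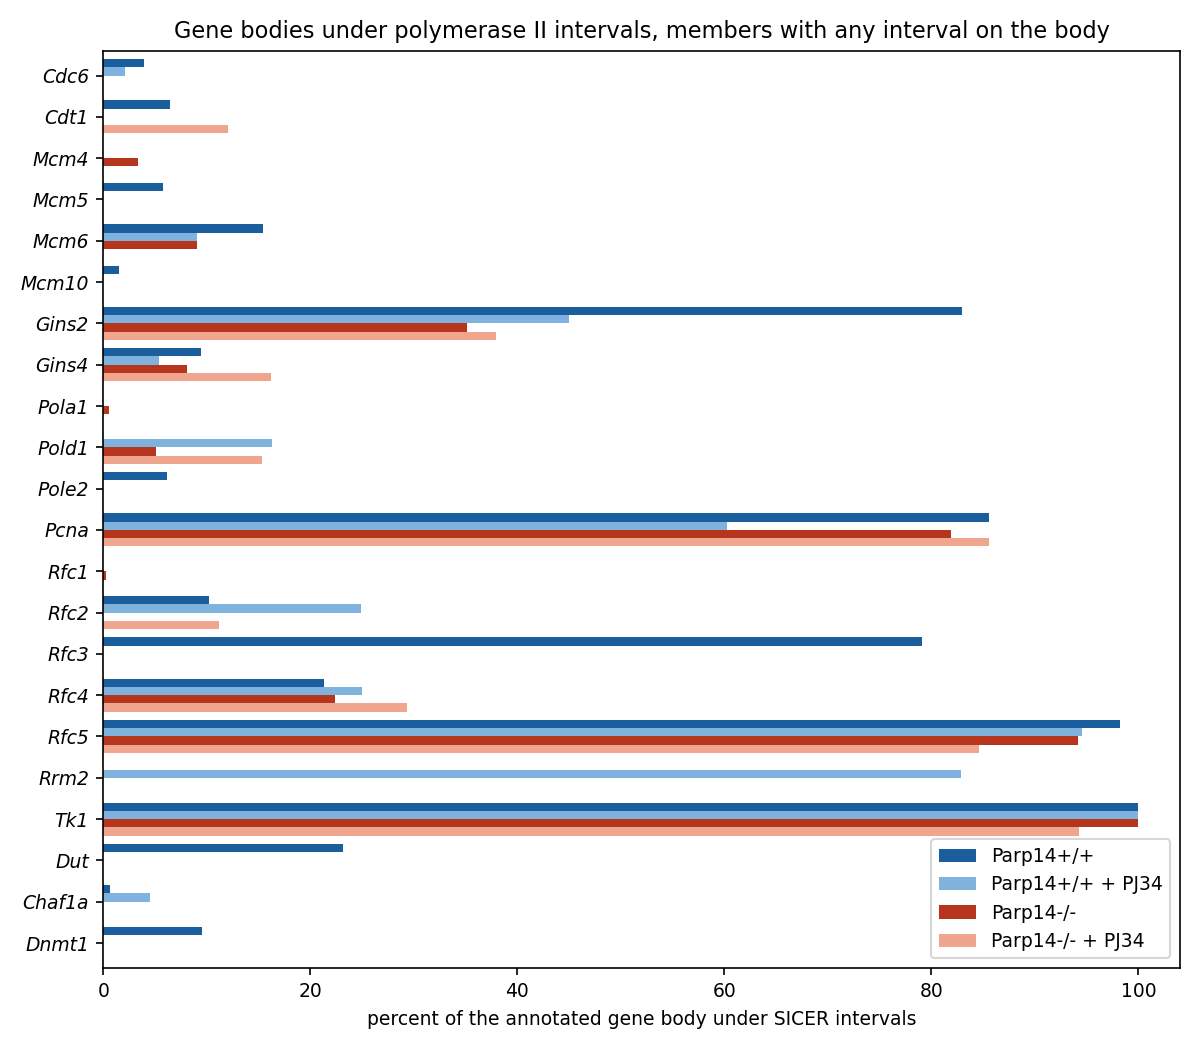
Percent of the annotated gene body under SICER intervals (x axis) in each library for the 22 members with any. *Tk1*, *Rfc5* and *Pcna* were covered over most of their length in every library, whereas 10 members had an interval in 1 library only.

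The wider pathway was read by the same call from rows found by coordinates. Of 59 other genes of replication, nucleotide synthesis and histone supply, 39 were tested, and 7 were called higher in *Parp14*+/+ and 2 higher in *Parp14*-/- without PJ34, beside 11.0 and 8.99% of all rows, with a median ratio of 1.06. With PJ34 the counts were 7 and 2, beside 19.8 and 4.58%, with a median of 1.14, which is that of all tested rows. Within *Parp14*+/+ cells 2 were called higher without and 2 with PJ34, beside 6.23 and 9.23%, and within *Parp14*-/- cells 2 and 1, beside 11.4 and 4.01%. *Samhd1*, whose enzyme degrades deoxynucleotides, was at 9 in *Parp14*+/+, 12 with PJ34, 22 in *Parp14*-/- and 16.5 with PJ34. Both *Parp14*-/- libraries were higher, the ratio being 0.409 (0.222-0.723) without PJ34 and 0.727 (0.411-1.27) with it. *Rrm2b*, a second small subunit of ribonucleotide reductase, was at 12.67, 10.33, 7.67 and 5.67 and was called higher in *Parp14*+/+ in both pairs, at 1.65 (0.959-2.90) and 1.82 (0.979-3.51). Both were named after their values had been seen.

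Among 17 E2F and RB genes, 9 were tested. None of them was called in either direction in the untreated genotype pair, beside 11.0 and 8.99% of all rows. With PJ34 4 were called higher in *Parp14*+/+, *E2f1*, *E2f3*, *E2f4* and *Ccne1* (cyclin E1), and 0 the other way, beside 19.8 and 4.58%. *E2f1* and *Ccne1* had an assigned interval in *Parp14*+/+ + PJ34 alone. They entered the tested rows only through the library in which they were called higher. The *E2f4* row shares its values with a neighbour. Within *Parp14*+/+ cells 0 were called higher without PJ34 and 2 with it, again *E2f1* and *Ccne1*, beside 6.23 and 9.23%. Within *Parp14*-/- cells the counts were 0 and 0, beside 11.4 and 4.01%. Among 20 mitosis genes only 5 were tested, and 0 were called in the untreated genotype pair and 1, *Mki67*, with PJ34, higher in *Parp14*+/+. Within either genotype 1 mitosis gene, *Cdc20*, whose row shares its values with a neighbour, was called higher without PJ34 and 0 with it. The shares of all rows beside these mitosis counts are those just given for the E2F and RB genes. Genes of these lists were named after their values had been seen. Of the 10 tested members with an E2F match, 5 were called higher in *Parp14*+/+ and 2 higher in *Parp14*-/- without PJ34, against 3 and 1 of the 15 without a match and 11.0 and 8.99% of all rows, a split that was made after the values had been seen and was not tested. Among the calls with a match, *Rfc3*, *Dnmt1*, *Pola1* and *Mcm5* had assigned intervals only in the genotype in which they were called higher. The same held for *Mcm10* and *Chaf1a* among the calls without one. These shares therefore cannot be read as a result about the motif.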

How the data were processed

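ChIP-Seq of RNA Polymerase II phosphoserine 2 was analysed in 4 libraries, 1 per condition, grouped by the labels; an Input library was used by the authors alone. Per the study's methods, the authors used ELAND for alignment to mm9, dropped duplicate reads, thinned every library to an equal number of alignments and ran SICER for intervals. They deposited the intervals, the signal at each interval's highest point, and a gene table with the signal as an average peak height. Active regions of that table were merged over these and other libraries, whose 8 columns of per-sample values were not used. The number of alignments was made equal by the authors and is not in the tables used, and the libraries still differed in their intervals (8841 to 12014). The precision is given by the heights: the summed height of a member and pair had a median of 16.5 to 19.

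The rows of the table were matched to GENCODE vM1 genes on NCBIM37 by at least 50% overlap. Heights and the number of active regions of a gene were those of its deposited row. Intervals that reached within 5 kb of a gene were listed with their highest points. Ratios, Clopper-Pearson intervals at 95%, counts and motif matches were computed with Python 3.11.15, numpy 2.4.6, pandas 2.3.3 and scipy 1.17.1, and the ratio intervals were tested on simulated data. Counting intervals treat heights as counts, and no p-value was computed. Intervals of the medians are binomial order-statistic limits at 95% over the member genes, as if these were independent, and cover no variation between libraries. Members and lists were chosen with earlier results of these data known. Members were named with all values where a counting interval excluded 1 (0 did), where both genotype pairs were called in 1 direction, for the 5 highest mean heights, and for *Mcm2* to *Mcm7* and *Pcna*. Alternatives covered scaling, fold limits, the interval requirement, a pseudocount, low heights, highest points on gene bodies, naming of rows and shared rows.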

Additional observations from a re-analysis of the deposited data

Results flagged for a closer look

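The ratios of 3 members lay past the fold limits on opposite sides of 1 in 2 pairs under the same contrast. With 1 library per condition these differences were not tested. *Mcm10*, a helicase activation gene, had a *Parp14*+/+ to *Parp14*-/- ratio of 1.75 without PJ34 and 0.571 with it. Because its heights were 7, 4, 4 and 7, its untreated to PJ34 ratio was likewise 1.75 in *Parp14*+/+ cells and 0.571 in *Parp14*-/- cells. *Pold2*, a polymerase subunit whose row was found by coordinates and had no interval in any library, had an untreated to PJ34 ratio of 0.5 in *Parp14*+/+ cells and 2.00 in *Parp14*-/- cells, from heights of 5, 10, 6 and 3. *Chaf1a* had an untreated to PJ34 ratio of 2.00 in *Parp14*+/+ cells and 0.5 in *Parp14*-/- cells, from heights of 14, 7, 5 and 10. Each of these ratios has a counting interval that includes 1.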

How the results depend on the processing

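No paired analysis was possible because the labels give no replicate numbers and each condition has 1 library, so no library was left out. An additive fit of genotype and PJ34 over the 4 libraries, which would leave 1 residual degree of freedom, was not run. Of 36 recomputed medians 36 stayed within the interval of the reported median, and of 72 recomputed counts 37 stayed within 1.5 times the reported count. Each of these median intervals includes 1, so a median at no difference would also have stayed within it. In the untreated genotype pair the members' median of 1.36 became 1.06 for rows that reached a summed height of 20. It became 1.11 for highest points on gene bodies and 1.09 for rows by name or coordinates with an interval in each of the 4 libraries. The other settings gave 1.2 to 1.36, and the median over all rows was 1 in every setting. Counts below are those higher in the first and in the second library of a pair, in the order *Parp14*+/+ to *Parp14*-/-, the same with PJ34, PJ34 in *Parp14*+/+ and PJ34 in *Parp14*-/-. They were 7 and 2, 5 and 0, 3 and 1, and 1 and 1 as reported. Fold limits of 1.2 and 0.83 gave 11 and 3, 9 and 2, 6 and 6, and 6 and 1, beside 24.6 and 19.8%, 37.3 and 10.8%, 16.2 and 23.5%, and 25.7 and 10.2% of all rows. Rows that reached a summed height of 20 in either library gave 0 and 1, 1 and 0, 1 and 0, and 0 and 0 of 7 rows, beside 11.1 and 9.69%, 19.7 and 4.65%, 6.70 and 7.65%, and 13.3 and 3.55% of all rows. The highest points on gene bodies, where an interval in 1 library alone counts as a call, gave 11 and 5, 6 and 1, 9 and 4, and 4 and 2, beside 34.3 and 17.4%, 39.7 and 14.8%, 22.2 and 19.6%, and 29.6 and 17.2% of genes. Leaving out rows with the values of a neighbour gave 6 and 1, 2 and 0, 2 and 1, and 0 and 1 of 14 rows. In that setting 10.5 and 8.92%, 20.5 and 4.49%, 5.57 and 9.4%, and 11.1 and 3.7% of all rows were called. Requiring an interval in each of the 4 libraries, chosen after seeing the data, was run on rows by name or coordinates. It gave 1 and 1, 2 and 0, 0 and 0, and 0 and 0 of 9 rows. The 1 called higher in *Parp14*+/+ without PJ34 was *Gins2*, a row found by coordinates. The shares of all rows in that setting were 9.6 and 9.06%, 16.9 and 4.7%, 6.07 and 6.26%, and 12.3 and 3.83%. Scaled libraries gave 2 members higher in *Parp14*-/- + PJ34 in the treated genotype pair, beside 9.57% of all rows. With no interval required, 1 was called higher there, beside 5.85%, and 2 and 4 were called in the last pair, beside 15.1 and 6.35%. Rows by coordinates gave 4 and 1 in the last pair, beside 11.4 and 4.01%. With a pseudocount of 1 the untreated genotype pair had 6 and 2, beside 9.1 and 7.6% of all rows. Adding 2 kb to each end of a gene raised the covered length to 96.0, 76.1, 57.3 and 57.6 kb. Smaller sets make fewer calls by construction. The cause of the other changes was not tested.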
